A study of Homo sapiens with 16 samples.

Results

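To describe H3K27ac at genes of the Hippo pathway, 10 genes that encode its kinases, coactivators, TEAD factors and TEAD cofactors were examined for regions changed in this histone mark of active promoters and enhancers, in myofibroblastic hepatic stellate cells in which O-GlcNAc transferase (OGT) was inhibited. The 10 genes are *YAP1*, *WWTR1* (encoding TAZ), *TEAD1* to *TEAD4*, *LATS1*, *LATS2*, *VGLL3* and *VGLL4*, taken by name out of 20033 protein-coding genes. A region was given to a gene when any base of it lay in the gene body or within 100 kb of the gene's annotated 5′ end. By this rule 21 of the 7130 regions in the deposited lists belonged to the 10 genes, 8 of 3507 regions that lost H3K27ac and 13 of 3623 regions that gained it. The cells were of the LX-2 line, derived from human hepatic stellate cells and established in culture, and they received vehicle (DMSO, control) or 50 µM OSMI-1, an OGT inhibitor (OGTi), for 24 h. The lists came from 8 H3K27ac ChIP-seq libraries, 4 biological replicates in each arm, out of 16 samples, and 1 line with 1 inhibitor is the whole model. Since the lists hold positions alone, no level, fold change, p-value or replicate value can be given for any region, the read depth is unknown, and every count below is a description.

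In the Hippo pathway, the kinases LATS1 and LATS2 phosphorylate the coactivators YAP1 and TAZ, which are then held in the cytoplasm or degraded. Unphosphorylated YAP1 and TAZ enter the nucleus and bind TEAD factors, which recognise the core CATTCC in DNA. The VGLL proteins bind TEAD as well, and VGLL4 competes with YAP1 for it. In stellate cells this pathway is known for its part in the response to a stiff matrix and in myofibroblastic activation.

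Lost regions were found at 5 of the 10 genes (*WWTR1*, *TEAD1*, *TEAD3*, *TEAD4* and *LATS2*), compared with 21.6% of all protein-coding genes by the same rule. Gained regions were found at 7 (*YAP1*, *WWTR1*, *TEAD1*, *TEAD4*, *LATS2*, *VGLL3* and *VGLL4*), compared with 30.5%. Both kinds occurred at *WWTR1*, *TEAD1*, *TEAD4* and *LATS2*, whereas 7.21% of all genes had both. *TEAD3* had lost regions alone, and *YAP1*, *VGLL3* and *VGLL4* had gained regions alone. *TEAD2* and *LATS1* had neither, as did 55.1% of all genes. By gene length, all 5 of the examined genes of at least 100 kb had gained regions, 2 of the 3 between 50 and 100 kb and 0 of the 2 under 50 kb. Among all protein-coding genes the shares with a gained region were 28.8%, 28% and 31.5% in the same order. Lost regions were found at 2, 2 and 1 of the examined genes, beside 22.5%, 19.4% and 21.8%.

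**Figure D1:**
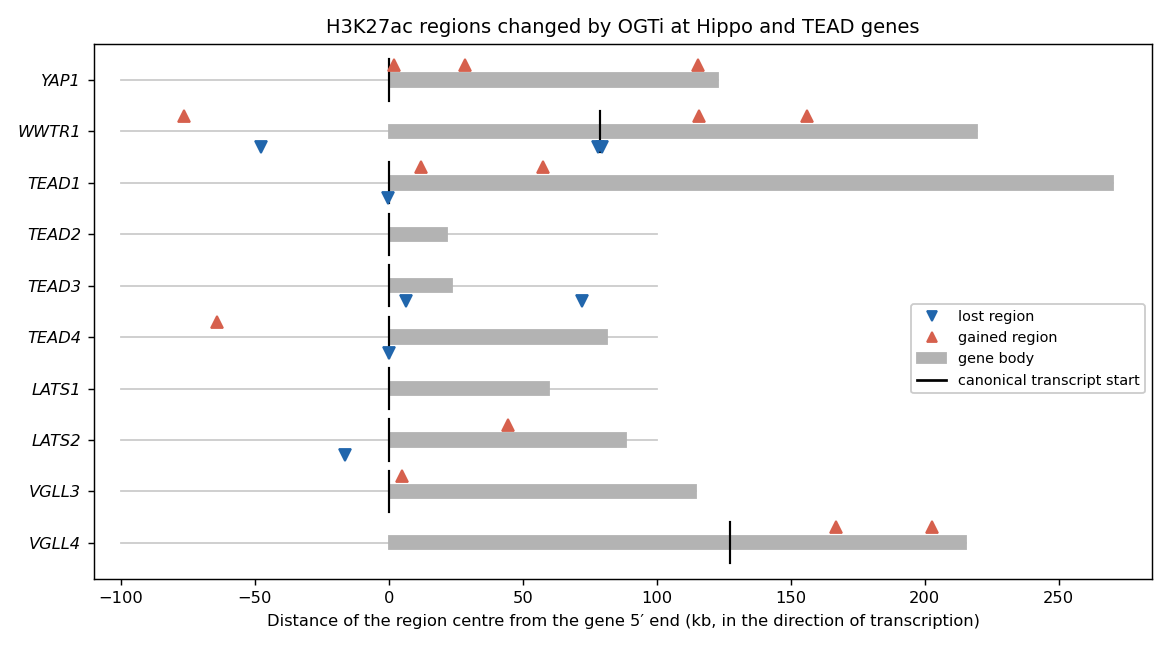
Position of the 21 changed H3K27ac regions along the 10 genes, as the distance of each region's centre from the gene 5′ end in kb. Grey bars are gene bodies, thin lines the rest of the window, black ticks the start of the canonical transcript, blue triangles lost and red triangles gained regions. Lost regions sit at the canonical starts of *WWTR1*, *TEAD1* and *TEAD4*, and *YAP1* carries 3 gained and 0 lost regions.

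Transcription start sites (TSSs) were considered next. A lost region lay within 2500 bp of the canonical TSS of *WWTR1*, *TEAD1* and *TEAD4*, a position that 1.99% of all protein-coding genes shared. A gained region lay there in *YAP1* alone of the 10 genes, compared with 6.63% of all genes. The canonical TSS was considered after the data were seen. With the gene's outermost 5′ end instead, the lost count was 2 (*TEAD1* and *TEAD4*, background 1.96%) and the gained count was again 1 (*YAP1*, background 6.39%), because *WWTR1* has an annotated 5′ end 78.7 kb upstream of its canonical TSS. With the TSS of any transcript, the counts were 3 lost (background 3.37%) and 2 gained (*YAP1* and *VGLL4*, background 8.21%). The sequences around the starts of *TEAD1* and *TEAD4* are shown because each holds several copies of the core CATTCC. They were read from hg38, with the cores in capitals, and each has 30 bases.

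*TEAD1*, chr11:12674402-12674431, plus strand: tcatttCATTCCtgtcctCATTCCgaacat
*TEAD4*, chr12:2959383-2959412, plus strand: tCATTCCagccctCATTCCgcgCATTCCag

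Both paralogs thus carried a direct repeat of the core, with 6 bases between the copies, at their own start. In *TEAD1* the first base of the later copy lay 1 bp upstream of the 5′ end. In *TEAD4* the first copy of the repeat began 54 bp downstream of the 5′ end. After the repeat, 1 more copy followed after a further 3 bases and began 75 bp downstream of the 5′ end. Among all listed regions, the repeat with 6 bases between the copies occurred in 5 of 3507 lost regions (0.143%) and in 1 of 3623 gained regions (0.0276%), and 2 of the 5 lost regions were those of *TEAD1* and *TEAD4*. It occurred in 3 of 35116 promoters of 300 bases in RefSeq, a set that held no entry for *TEAD1* or *TEAD4*. The listed regions were longer, with median widths of 1905 bp (lost) and 1697 bp (gained). Their shares are thus not directly comparable with those of the promoters. The repeat with 3 bases between the copies occurred in 21 lost regions (0.599%) and in 0 gained regions, with 6 of the 35116 promoters. These repeats were searched for after the *TEAD4* sequence had been seen, and both printed stretches were chosen for their cores. Their occurrence in *TEAD1* and *TEAD4* is thus not a test, and a match is not evidence of binding.

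Matches to the longer TEAD motif RCATTCCW (with R for A or G and W for A or T, on either strand) were found at 9 positions in 8 of the 21 regions. In the whole lists, 42.9% of lost and 27.5% of gained regions held a match, so matches are frequent outside these genes too. The 9 matches are printed here because TEAD factors, the end point of the pathway, recognise this element. Each is read 5′ to 3′ along the motif, with the consensus in capitals and 10 bases on either side.

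*YAP1*, gained, chr11:102112353-102112360: atgagtgttaACATTCCAataggtccca
*YAP1*, gained, chr11:102138479-102138486: gttgctgggaACATTCCAaaagggggaa
*YAP1*, gained, chr11:102225997-102226004: aagcacatggGCATTCCTgaggacagag
*WWTR1*, lost, chr3:149658285-149658292: acctgcatctGCATTCCTttgagtttac
*WWTR1*, lost, chr3:149658871-149658878: ggcggcagggACATTCCAatcctcccac
*WWTR1*, lost, chr3:149784178-149784185: acttttcacaACATTCCAgggatgtcag
*TEAD4*, lost, chr12:2959404-2959411: ctcattccgcGCATTCCAgcgtcctcct
*LATS2*, gained, chr13:21018172-21018179: aaaacctaagGCATTCCTtcaggcaggt
*VGLL3*, gained, chr3:86986879-86986886: ttaagtttagGCATTCCAaaggccgtta

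All 3 gained regions of *YAP1* held 1 match each. In *WWTR1* the matches fell in lost regions and in none of its 3 gained regions. Of the VGLL genes, *VGLL3* had a match and *VGLL4* had none.

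The coactivator genes *YAP1* and *WWTR1* differed in direction within 2500 bp of their canonical TSSs, a position considered after the data were seen. *YAP1* (ENSG00000137693.14, chr11:102110447-102233424, plus strand, 123 kb) gained H3K27ac in 3 intronic regions and had no lost region closer than 423 kb. The first gained region (chr11:102111910-102113080, 1171 bp) began 1463 bp downstream of the 5′ end, in intron 1 of the canonical transcript, and covered the TSS of the shorter transcript YAP1-203 at 102112514 and part of its untranslated exon. It did not reach the CpG-rich promoter, and had a GC content of 38.2%. Its TEAD match lay 40 bp from a match to AP-1 (TGANTCA, both strands), the motif of FOS and JUN dimers. The second (chr11:102138096-102140109, 2014 bp) lay in intron 2, 27.6 kb downstream of the 5′ end, and the third (chr11:102225086-102226783, 1698 bp) in intron 7, 115 kb downstream. For the third region the nearest outermost 5′ end of a protein-coding gene was that of *BIRC3*, an inhibitor of apoptosis, 90.7 kb away. The start of a shorter annotated transcript of *YAP1* itself was much closer, 190 bp from this region, which did not cover it. Of all protein-coding genes, 3.79% had at least 3 gained regions. Outside these regions, the RefSeq promoter of *YAP1* itself held a TEAD match beginning 163 bp upstream of the TSS (chr11:102110284-102110291), as did 4.15% of the promoters:

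*YAP1* promoter, gene strand: gggagtgtgcAGGAATGTagcaacttgc

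*WWTR1* (ENSG00000018408.15, chr3:149517235-149736714, minus strand, 219 kb) had the most regions of the 10 genes, 3 lost and 3 gained. At least 3 lost regions were found at 3.82% of all genes and at least 3 gained regions at 3.79%. An unbroken pair of lost regions, chr3:149656397-149658136 (1740 bp) and chr3:149658137-149659309 (1173 bp), covered the canonical TSS at 149658025, those of 4 more coding transcripts, and exons 1 and 2 of the canonical transcript. Because wide peaks were divided into bins by the authors, these abutting regions may be 1 acetylated domain. The region over the TSS held no CATTCC. The abutting upstream region held the TEAD matches listed above, 260 and 846 bp upstream of the canonical TSS, and 2 AP-1 matches. The stretch that joins the promoter to the nearer match is printed on the strand of the gene, with the TEAD match, there on the opposite strand, in capitals.

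*WWTR1*, lost, chr3:149658042-149658341, minus strand: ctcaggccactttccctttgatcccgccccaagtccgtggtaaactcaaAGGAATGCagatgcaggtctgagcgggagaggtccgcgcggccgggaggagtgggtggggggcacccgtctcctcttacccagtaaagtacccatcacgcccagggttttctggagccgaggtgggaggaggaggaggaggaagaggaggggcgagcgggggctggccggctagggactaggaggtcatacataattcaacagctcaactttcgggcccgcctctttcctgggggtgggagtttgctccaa

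The GC content of this stretch was 61.7%. Further upstream, *WWTR1* had a lost region of 914 bp (chr3:149783985-149784898) and a gained region of 1849 bp (chr3:149812206-149814054), both outside the gene body. The nearest protein-coding 5′ end for both was that of *RNF13*, a ubiquitin ligase, which the gained region covered. The gained regions inside *WWTR1*, chr3:149579222-149582214 (2993 bp) and chr3:149620070-149622002 (1933 bp), lay in intron 2, 75.8 and 36 kb downstream of the canonical TSS. The wider of them was at the 97.4th percentile of width in the gained list. The antisense gene *WWTR1-AS1* overlaps the promoter, and H3K27ac does not tell the strands apart.

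**Figure D2:**
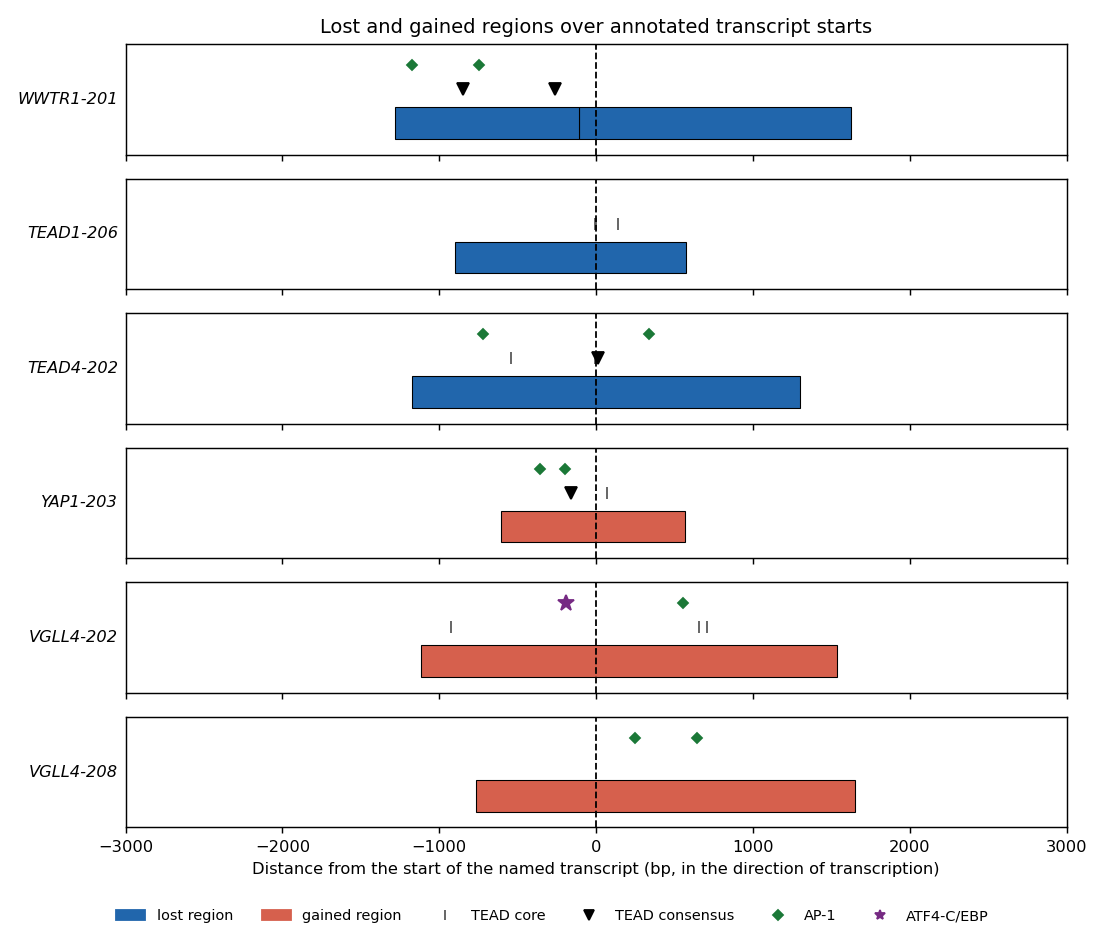
Lost (blue) and gained (red) regions around the start of 6 transcripts, at 0 on the axis, in bp in the direction of transcription. Marks above each region show matches to the TEAD core (bars), the TEAD consensus (triangles), AP-1 (diamonds) and ATF4-C/EBP (star). *WWTR1*, *TEAD1* and *TEAD4* have lost regions across the start, and *YAP1* and *VGLL4* have gained regions across the start of transcripts that are not the canonical one.

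Of the 4 TEAD genes, which encode the DNA-binding partners of YAP1 and TAZ, 3 had lost regions. Of these, *TEAD1* and *TEAD4* had gained regions as well. Among all protein-coding genes the shares were 21.6% for lost and 30.5% for gained regions. *TEAD1* (ENSG00000187079.20, chr11:12674421-12944737, plus strand, 270 kb) lost H3K27ac in a region over its 5′ end (chr11:12673521-12674994, 1474 bp) that overlapped exon 1. This region had a GC content of 67.0% and a CpG observed/expected ratio of 0.993, at the 99.8th percentile of the lost list. It held 3 cores and no match to the longer consensus. Inside the gene, 2 regions were gained, both in intron 2. The nearer (chr11:12685874-12687437, 1564 bp) lay 11.5 kb and the farther (chr11:12731752-12732519, 768 bp) 57.3 kb downstream of the 5′ end. The nearer had a CpG ratio of 0.0605, at the 2.57th percentile of the gained list, so that both extremes of CpG content among the 21 regions belonged to *TEAD1*. The pattern of *TEAD1* was a lost region at the 5′ end with a gained one elsewhere in the gene body, and no other kind. Read off *TEAD1* itself and not tested, it was also found at 13 other protein-coding genes (0.0649%). Nearest to *TEAD1* in length among them were *ACVR1* (a type I receptor for BMP and activin ligands, 140 kb), *PHACTR4* (a regulator of actin and protein phosphatase 1, 131 kb) and *ITGB1* (integrin β1, 119 kb).

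*TEAD4* (ENSG00000197905.10, chr12:2959330-3040676, plus strand, 81.3 kb) lost H3K27ac in a region of 2474 bp over its 5′ end (chr12:2958223-2960696). The region covered the TSSs of 7 of its 8 annotated transcripts and exons 1 and 2, with a GC content of 65.8% and a CpG ratio of 0.802. It held 4 TEAD cores, 1 of them within the longer consensus, and 2 AP-1 matches. The consensus lay 7 bp downstream of the canonical TSS, within the annotated untranslated region. The gained region of *TEAD4* was narrow (chr12:2895161-2895371, 211 bp, the 1.1th percentile of width) and lay 64.0 kb upstream, in the body of *TULP3*, whose 5′ end was 17.9 kb from it. A lost region at the 5′ end and no other region in the gene body was also found at 301 other genes, of which *ASXL1*, *BAIAP2* and *SH2D4A* were nearest in length.

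*TEAD3* (ENSG00000007866.22, chr6:35473597-35497079, minus strand, 23.5 kb) lost H3K27ac in intron 1 (chr6:35489260-35491956, 2697 bp), 5.12 kb downstream of the 5′ end. The GC content of this region was 60.1% and its CpG ratio 0.191. Its other lost region (chr6:35423642-35426048, 2407 bp) lay 71 kb from the 5′ end, beyond the gene, within *PPARD*, which encodes a nuclear receptor. The nearest gained region was 103 kb from the 5′ end, just outside the window. Of all genes, 8.36% had at least 2 lost regions. *TEAD2* (ENSG00000074219.14, chr19:49340595-49362457, minus strand, 21.9 kb) had no listed region closer than 397 kb. Genes absent from the lists may have carried H3K27ac that did not pass the threshold or none at all, which the lists cannot tell apart.

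The kinase genes differed from each other as well. *LATS2* (ENSG00000150457.9, chr13:20973036-21061586, minus strand, 88.6 kb) had a lost region 15.7 kb upstream of its 5′ end (chr13:21077303-21078452, 1150 bp) that lay in no annotated gene, with a GC content of 59.0% and no TEAD core. Its gained region (chr13:21016290-21018203, 1914 bp) lay in intron 2, 43.4 kb downstream of the 5′ end, with 1 TEAD match and 4 AP-1 matches. An antisense gene, *LATS2-AS1*, overlaps the gained region. The *LATS2* promoter, outside both regions, held a TEAD match beginning 8 bases after the TSS (chr13:21061571-21061578):

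*LATS2* promoter, gene strand: gtgacgcccgTGGAATGCcaacaatgta

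A gained region in the gene body away from the 5′ end, as the single change in the body, was found at 790 other genes (3.94%), of which *IRF2*, *ST3GAL6* and *PAPSS2* were nearest in length. *LATS1* (ENSG00000131023.13, chr6:149658153-149718105, minus strand, 60 kb) had no lost region closer than 1139 kb and no gained region closer than 171 kb.

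The VGLL cofactor genes among the 10, *VGLL3* and *VGLL4*, had gained regions alone. *VGLL3* (ENSG00000206538.9, chr3:86876388-86991149, minus strand, 115 kb) gained a region in intron 1 (chr3:86985048-86987047, 2000 bp), 4.10 kb downstream of the 5′ end, with 1 TEAD match and the lowest GC content of the 21 regions, 36.2%. *VGLL4* (ENSG00000144560.16, chr3:11556069-11771350, minus strand, 215 kb) has 18 annotated transcripts, each with a start of its own. Its 2 gained regions lay within 100 kb of the canonical TSS but not of the gene 5′ end, and each covered an alternative start. The region chr3:11603047-11605697 (2651 bp) covered the start of VGLL4-202 at 11604581, in intron 1 of the canonical transcript. The region chr3:11567273-11569691 (2419 bp) covered that of another coding transcript at 11568924, in intron 2, with coding sequence. At least 2 gained regions were found at 10.4% of all genes. The RefSeq promoter of the former start (GRCh38.p14) is shown because it held the single ATF4-C/EBP match (TGATGCAA, both strands, in capitals) among the 3 promoters that fell in changed regions. Of all promoters, 0.866% held this motif, which binds ATF4, a factor of the amino acid and stress response.

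*VGLL4*, gained, chr3:11604582-11604831, minus strand: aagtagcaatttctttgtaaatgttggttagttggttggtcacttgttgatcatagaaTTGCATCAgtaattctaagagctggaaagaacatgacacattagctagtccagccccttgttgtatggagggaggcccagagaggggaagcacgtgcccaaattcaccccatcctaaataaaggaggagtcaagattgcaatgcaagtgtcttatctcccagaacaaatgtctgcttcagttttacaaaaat

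This promoter was poor in CpG, with a ratio of 0.0794 over 300 bases. The RefSeq table held entries for 8 of the 10 genes, and none for *TEAD1* and *TEAD4*.

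Base composition separated the regions of the 10 genes by direction more than it separated the whole lists. The lost regions had a median GC content of 59.2% (42.2% to 67.0%), compared with 46.8% in the lost list. The gained ones had a median of 41.7% (36.2% to 55.9%), compared with 46.1% in the gained list. The median CpG ratio was 0.484 in lost and 0.192 in gained regions of these genes, whereas in the lists it was 0.202 and 0.247, the opposite order. Median widths were 1607 bp for lost and 1914 bp for gained regions, with 1905 and 1697 bp in the lists. A transcript TSS of any annotated gene was covered by 4 of 8 lost regions (*TEAD1*, *TEAD4*, *WWTR1* and its antisense gene) and by 4 of 13 gained ones (*YAP1*, *VGLL4* and *RNF13*), compared with 17.6% and 37.7% of the lists. Regions of a gene share their locus, so these medians were not tested.

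**Figure D3:**
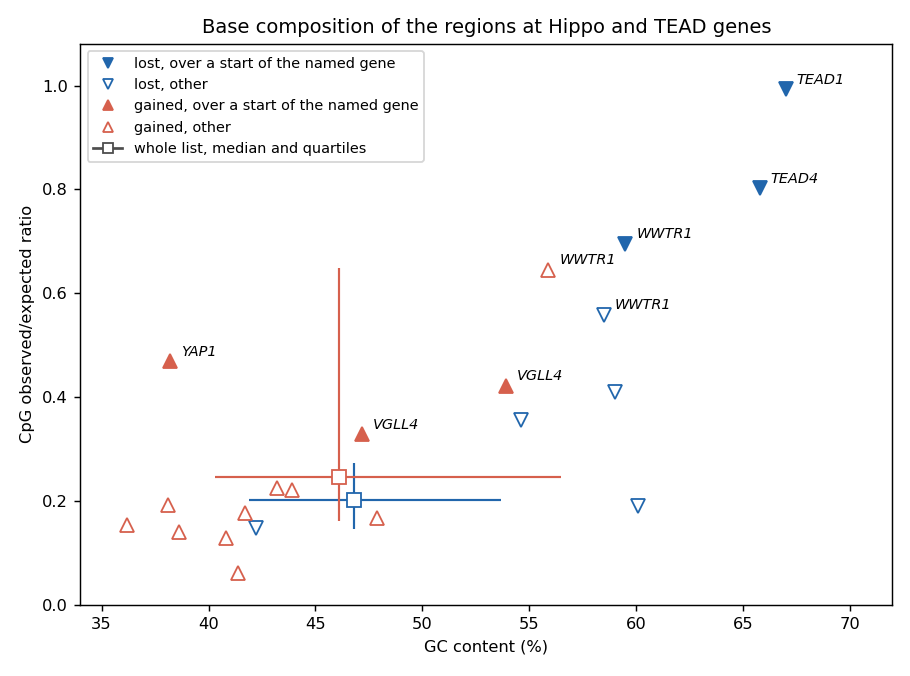
GC content (%) against the CpG observed/expected ratio of the 21 regions, lost in blue and gained in red, filled where they cover a start of the gene they were given to. Squares with bars are the median and quartiles of each whole list. The lost regions over the starts of *TEAD1*, *TEAD4* and *WWTR1* lie at the upper right, with CpG ratios of 0.993, 0.802 and 0.695.

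Motif content was compared with that of the lists. The TEAD consensus occurred in 3 of 8 lost regions (37.5%, Wilson 95% interval 13.7% to 69.4%, counting error only) and in 5 of 13 gained regions (38.5%, 17.7% to 64.5%). In the lists it occurred in 42.9% of lost and 27.5% of gained regions. Both intervals include the value of their list. They treat the regions as independent, although regions of a gene share their locus, so a difference from the lists was not tested. AP-1 matches occurred in 4 lost and 10 gained regions, 50% and 76.9%, compared with 56.5% and 53.6% in the lists. TEAD and AP-1 matches occurred together in 3 lost and 4 gained regions. Matches to ATF4-C/EBP occurred in 0 lost and 3 gained regions (23.1%), compared with 10.1% of the gained list. Matches to RUNX (TGTGGT) occurred in 3 lost and 9 gained regions, with 68.1% and 60% in the lists. Matches to SRF occurred in 2 lost and 2 gained regions, with 14.7% and 7.76% in the lists. Matches to ETS (CCGGAAGT) and to NRF1 occurred in 0 of the 21, and were infrequent in the lists as well, with 1.34% of lost and 6.71% of gained regions for ETS and 0.057% and 1.52% for NRF1. A consensus match describes the letters only.

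Besides these 10, 45 further genes of the pathway were examined by the same rule. Lost regions were found at 17 (37.8%) and gained ones at 18 (40%), with both at 6 and neither at 16, beside 21.6% and 30.5% of all genes. Among the 12 upstream kinases, 5 had lost and 5 had gained regions. The 8 adaptors had 4 and 2, the 7 junction proteins 3 and 4, and the 6 cadherin and polarity genes 1 and 2. The 5 genes of the STRIPAK phosphatase complex, which opposes the upstream kinases, had 0 with lost and 2 with gained regions. Among the 3 degradation enzymes these numbers were 1 and 1, among 2 other regulators 2 and 1, and of the VGLL paralogs *VGLL2* had a lost and *VGLL1* a gained region. At the gene 5′ end, *WWC2*, an adaptor that activates LATS kinases, had a lost region (chr4:183098125-183100309), and *STRN4*, a STRIPAK subunit, a gained one.

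The genes of this wider list with the highest counts of lost regions, out of 38, were *CSNK1D* (7), a casein kinase that primes YAP1 and TAZ for degradation, and *AMOTL2* (6), an angiomotin that holds YAP1 at junctions. For 4 of the 7 and 4 of the 6 the nearest protein-coding 5′ end was that of the gene itself. *FRMD6*, an upstream adaptor, had 3 lost regions 14.4 to 41.4 kb upstream of its 5′ end and 3 gained ones farther away, with *FRMD6* nearest to all 6. The 3 lost regions of *SAV1*, the scaffold of the upstream kinases, lay 93.3 to 99.9 kb upstream, nearest to *NIN*, and those of *RASSF1* nearest to *SEMA3B*. The most gained regions, 3 each, were found at *MAP4K5*, *TNIK*, *FRMD6*, *AMOTL1*, *AJUBA*, *STRN4* and *CSNK1E*. For *TNIK* and *AMOTL1* all 3 were nearest to the gene itself, whereas those of *MAP4K5* were nearest to *ATL1* and those of *CSNK1E* to *PLA2G6*. A window of 100 kb thus includes regions of neighbouring genes, and of the 21 regions of the 10 genes 15 had the gene itself as the nearest protein-coding 5′ end.

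**Figure D4:**
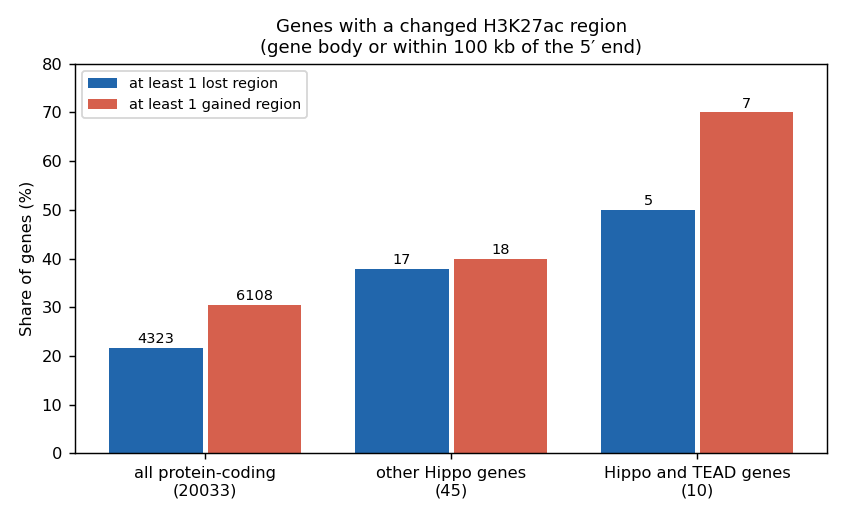
Share of genes (%) with at least 1 lost (blue) or gained (red) region in the gene body or within 100 kb of the 5′ end, with the number of genes above each bar. The 10 Hippo and TEAD genes (5 and 7) and the 45 other pathway genes (17 and 18) stand beside all 20033 protein-coding genes (21.6% and 30.5%).

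The patterns of the coactivator genes were compared in the same way. A gained region within 2500 bp of the 5′ end and another in the gene body, with no lost one, was found at 148 genes besides *YAP1* (0.739%), of which *BNIP3L*, *DNAJC13* and *INSYN2B* were nearest in length. Lost and gained regions in the gene body away from the 5′ end were found at 160 genes besides *WWTR1* (0.799%), of which *NDUFAF6*, *OSBPL9* and *CRADD* were nearest in length. The class of *WWTR1* depends on the start: with the canonical TSS in place of the gene 5′ end, a choice made after seeing the data, *WWTR1* had the pattern of *TEAD1*, lost at the start and gained elsewhere in the body. Besides *WWTR1*, 11 genes (0.0549%) then showed it, *TEAD1* among them. As a check of the labelled cell type, 6 of 7 stellate cell and myofibroblast markers had lost regions and 2 had gained ones. Of 4 hepatocyte markers 0 had lost and 1 had gained regions, of 4 endothelial markers 3 and 2, and of 4 macrophage markers 3 and 1. Beside these stand 21.6% of all protein-coding genes with lost and 30.5% with gained regions. Lost regions nearest to the stellate cell marker *PDGFRB* were counted for the neighbouring macrophage marker *CSF1R* as well. Lists of changed regions show neither the presence nor the absence of a cell type.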

How the data were processed

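Per the study's methods, the authors aligned H3K27ac ChIP-seq reads to hg38 with Chromap, called peaks per library with MACS2 2.1.1.20160309 against input, binned them and compared all 8 libraries with MAnorm2. The deposited values are the 2 resulting lists of positions in base pairs, with 3 columns (chromosome, start, end) and no score, p-value or replicate value. Their names carry an adjusted p of 0.15, and the published methods a stricter value. The input and CoP-seq libraries were not used.

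Starts were converted to count from 1. Genes came from GENCODE release 44 and sequences from hg38, read with Python 3.11.15 and pysam 0.24.0. All 10 symbols matched. The 8 motifs were searched on both strands, overlaps included. The motif search was tested on simulated sequences with planted matches. The window rule was checked only as a formula on simulated positions, not through the code that counted the regions. No test between arms was possible, so counts stand beside the share of all protein-coding genes. The genes and lists were chosen with earlier results of these data known. Named genes were the 10 genes, pathway genes with a region within 2500 bp of the 5′ end or among the 5 with most regions per direction (ties included), the 3 genes nearest in length with the same pattern, and the nearest protein-coding gene of a named region. Genes at the centre of a region and core repeats were named after the values were seen. Apart from the genes named in the text, items that fell under this rule are left out. Among them are the protein-coding genes nearest to the *TEAD3* lost region within *PPARD* and the wider intronic gained region of *WWTR1*.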

Additional observations from a re-analysis of the deposited data

How the results depend on the processing

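The counts depended mainly on the window. With the gene body alone, 5 lost regions remained in place of 8. Within 100 kb of the 5′ end alone, 8 gained regions were counted in place of 13, since both regions of *VGLL4*, both intronic gained regions of *WWTR1* and 1 region of *YAP1* lie farther away. Within 2500 bp of the gene 5′ end, there were 2 lost regions at 2 genes and 1 gained region at 1 gene, which held a TEAD match (100% of gained regions), and the shares of all protein-coding genes were 1.96% and 6.39%. Within 2500 bp of the canonical 5′ end, an alternative added after seeing the data, there were 4 lost regions at 3 genes and 1 gained region at 1 gene, again with a TEAD match (100%). The core CATTCC in place of the consensus was found in 75% of lost and 69.2% of gained regions. Searching the central 1000 bp alone gave the consensus in 15.4% of gained regions. Of 270 values recomputed under the alternatives, 223 stayed within 1.5 times the reported count or within the 95% interval of the reported share, among them 170 of 200 counts of single genes. Of the latter, 120 belong to counts reported above 0, and 90 of these stayed within that range, whereas the counts reported as 0 were 0 throughout. No paired analysis was possible because replicate values are not part of the lists. Likewise, no replicate could be left out, and without p-values no stricter threshold was tried. The lists carry neither the size of a change nor the depth behind it, so that a wide region is not a stronger one.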
